A study of Mus musculus with 50 samples.

Results

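The ETS family of transcription factors was examined in 50 single mouse hemogenic endothelial cells for 8 genes other than Fli1 and Erg: Etv2, Ets1, Ets2, Elk3, Etv6, Elf1, Elf2 and Gabpa. They were chosen by name, with earlier results of these data known. All 8 had a row among the 11879 gene rows of the expression table. Their levels and their joint presence in the same cell are described below.

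The cells form 1 group, iR-iHEC, with no second group to compare. They were induced hemogenic endothelial cells made in culture from C57BL/6 mouse embryonic stem cells that carried a doxycycline-inducible Runx1 cassette in the Rosa26 locus. In the study they were sorted as CD31+CD41lowCD45−c-kit+CD201high, the surface phenotype of embryonic precursors of blood stem cells. All 50 cells share the cassette, so the Runx1 level joins the endogenous gene and the transgene. The number of clones or cultures behind the cells was not given in the sources used here, and the cells are treated as 1 sample with no replicate and no test.

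ETS factors share a DNA-binding domain that reads the core letters GGAA, and many regulatory elements of endothelial genes hold such a core. Etv2 is known to start the endothelial and blood programmes in mesoderm and to be switched off afterwards. The other members are known to act later or in many cell types, either as activators (Ets1, Ets2, Elf1, Elf2, Gabpa) or with a repressive role (Etv6 and, until it is phosphorylated by MAP kinases, Elk3).

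Levels are given as TPM (transcript abundance scaled for gene length and for a common total per cell), so listed values of genes can be set side by side. TPM does not remove differences between genes in capture and amplification, so orders and shares of genes describe the listed values. A gene was counted in a cell at TPM above 1. The depth of each cell is unknown from TPM, and the number of genes above TPM 1 is used in its place: it ran from 2400 in cell 4-6 to 8615, with a median of 6224, and lay under 5000 in 7 cells. Cells are named by the pair of numbers in their titles, for which the labels give no explanation. The label of the cells was checked against markers. The endothelial genes Cdh5, Pecam1, Tie1, Kdr, Esam and Icam2 were above TPM 1 in 50 of 50 cells, while Notch4 and Robo4 were in 39 and Vwf in 33. Of the genes for the sort markers, Procr (CD201) was above TPM 1 in 50 cells, Kit in 47 and Itga2b (CD41) in 40. Of 6 blood genes, Ptprc (CD45), Spn and Itgam were listed at 0 in all 50 cells, Cd52 was above TPM 1 in 3 cells, Laptm5 in 48 and Cd34 in 50, and their summed TPM ran from 272 to 2590. The 3 erythroid genes with a row reached a summed TPM of at most 144 and the 4 mesenchymal genes at most 84.2, both with a median of 0. Pdgfrb and Col3a1 were listed at 0 in all cells, and the 6 pluripotency genes searched had no row.

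The starts of a rarely counted member (Etv2) and of a universally counted one (Elk3) are shown first, as a description of their letters. Each is the 250 bases before the RefSeq start (GRCm38.p6), written 5′ to 3′ on the gene's own strand, with GGAA or its complement TTCC in capitals. The Etv2 window is chr7:30635853-30636102 on the minus strand. The Elk3 window is chr10:93311160-93311409 on the minus strand.
Etv2: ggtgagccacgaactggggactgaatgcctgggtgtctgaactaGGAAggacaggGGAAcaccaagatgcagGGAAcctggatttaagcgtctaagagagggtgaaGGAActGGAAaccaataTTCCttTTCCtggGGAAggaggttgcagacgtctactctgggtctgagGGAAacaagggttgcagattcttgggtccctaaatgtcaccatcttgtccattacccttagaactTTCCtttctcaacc
Elk3: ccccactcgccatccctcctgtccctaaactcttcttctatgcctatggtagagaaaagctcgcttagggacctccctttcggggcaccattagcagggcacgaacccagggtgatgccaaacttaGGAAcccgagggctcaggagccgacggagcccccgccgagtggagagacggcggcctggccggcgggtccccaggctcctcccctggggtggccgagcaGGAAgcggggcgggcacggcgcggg
Neither stretch overlaps an annotated exon. The Etv2 stretch held 10 core matches on both strands together and the Elk3 stretch 2. Counted over the window of 300 bases that runs 50 bases past the start, Etv2 had 11, which placed it among the 3.72% of 32851 windows with 8 or more, against a median of 3. Windows were matched for 7 members, without Ets1. The other windows held 6 matches (Etv6), 5 (Gabpa), 1 and 6 (the 2 starts of Elf2), 2 and 1 (the 2 starts of Elf1) and 1 (Ets2). At least 1 core was present in 96.0% of all windows, so its presence separates few genes. A match is a description of letters and not of a bound site. The number of matches was not tested against the number of cells. Ets2, counted in 50 cells, had 1 match, and Etv6, counted in 42, had 6. The windows of 300 bases also differ in GC content, with 50.7% for Etv2 and 71.3% for Elk3 against a median of 52.7%.

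All 8 members were found in at least 9 cells, and 6 of the 8 passed TPM 1 in 40 or more of the 50 cells, as did 28.8% of all 11879 rows. The order of the median TPM was Elk3, Ets2, Ets1, Elf2, Elf1, Etv6, Gabpa and Etv2. The median TPM of the whole table's rows had a median of 2.1. Elk3, Ets2 and Ets1 stood above 92.3%, 91.1% and 85.6% of rows by median TPM, while Gabpa stood above 48.3%.

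**Figure D1:**
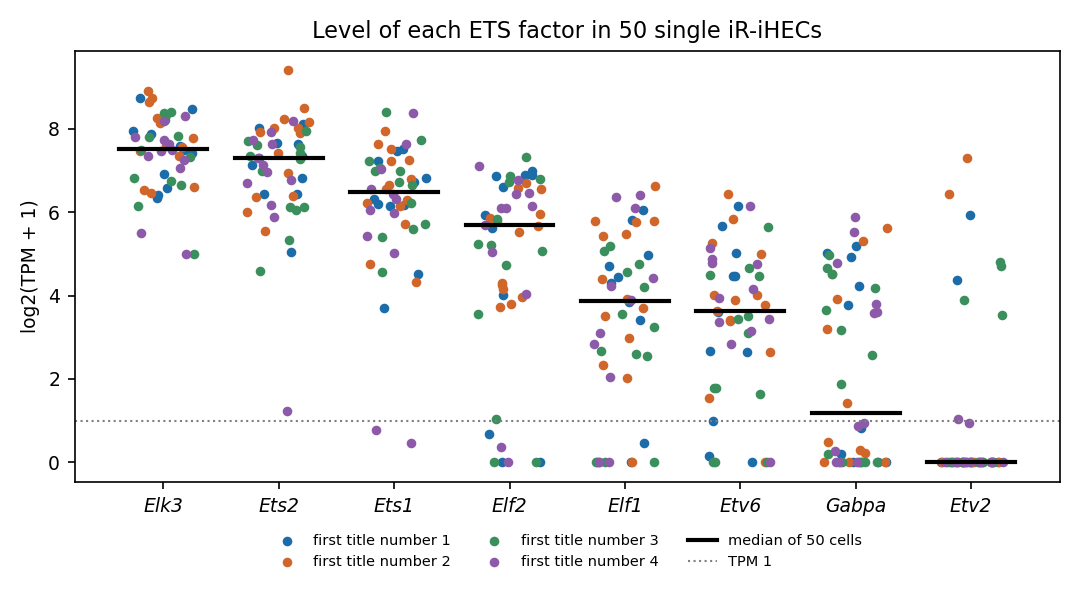
TPM of each ETS factor in each of 50 cells, on the log2(TPM + 1) scale, with points coloured by the first title number and black bars for the median. Elk3 and Ets2 lie above TPM 1 (dotted line) in all 50 cells, Gabpa is divided around the line with 25 cells above it, and Etv2 is above it in 9 cells.

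Ets1 and Ets2 are close relatives whose activity is raised by Ras/MAP kinase phosphorylation. Ets2 was above TPM 1 in 50 of 50 cells (100%, exact 95% interval 92.9% to 100%), with a lowest TPM of 1.34 in cell 4-6, a median of 157 and a highest of 676 in cell 2-11. The next highest cell reached 361, so cell 2-11 stood apart at the top, and the next lowest cell had 23.1. Ets1 was above TPM 1 in 48 cells (96.0%, 86.3% to 99.5%). Its TPM had a lowest value of 0.38 in cell 4-6, a median of 89.2 and a highest value of 338 in cell 3-1. Only cells 4-6 and 4-13 (0.71) lay at or under TPM 1, and every other cell was at 12.0 or higher. Ets2 was the higher of the pair in 40 cells and Ets1 in 10. Their middle ranges overlapped, from 54.3 to 145 TPM between the quartiles for Ets1 and from 83.5 to 230 for Ets2.

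Elk3 (also called Net) is a ternary complex factor that binds DNA with the serum response factor Srf. It was above TPM 1 in all 50 cells and above TPM 10 in all 50, the only member for which both held. Its lowest TPM was 30.8 in cell 3-14, its median 183 and its highest 480 in cell 2-2. Its coefficient of variation over cells, 0.535, was the lowest of the 8, against 0.674 for Ets2 and 3.31 for Etv2. Elk3 exceeded Ets2 in 29 cells and was below it in 21, and the quartiles of Elk3 (113 and 290 TPM) overlapped those of Ets2, so the order of these neighbours lay within the spread of the cells. The other ternary complex factors were sparser, with Elk4 above TPM 1 in 29 cells and Elk1 in 17, and 16 cells had Elk3 with neither. Srf itself was above TPM 1 in 20 cells. The Elk3 gene body overlaps Cdk17 on the opposite strand, and whether the counting used strand was not given in the sources used here.

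Elf1 and Elf2 (also called NERF) are known to bind the regulatory elements of endothelial receptor genes such as Tek. Elf2 was above TPM 1 in 43 cells (86.0%, 73.3% to 94.2%), with a lowest TPM of 0 in 5 cells, a median of 50.6 and a highest of 159 in cell 3-15. Elf1 was above TPM 1 in 40 cells (80%, 66.3% to 89.97%), with a lowest TPM of 0 in 9 cells, a median of 13.5 and a highest of 98.6 in cell 2-1. Elf2 exceeded Elf1 in 34 cells and was below it in 14, and their quartiles (15.2 and 94.6 against 4.26 and 32.1 TPM) overlapped. Both were counted in 37 cells, Elf2 alone in 6, Elf1 alone in 3 and neither in 4. Elf1 overlaps Wbp4 on the opposite strand.

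Etv6 (also called Tel) is a repressor that recruits the corepressors Ncor1 and Sin3a and the deacetylase Hdac3. It was above TPM 1 in 42 cells (84.0%, 70.9% to 92.8%), with a lowest TPM of 0 in 6 cells, a median of 11.3 and a highest of 86.3 in cell 2-11. Etv6 was thus found about as often as Elf2 but at a lower level, and Elf2 exceeded it in 39 cells and was below it in 10. Between Etv6 and Elf1 the higher gene changed from cell to cell, with Etv6 ahead in 23 cells and Elf1 in 27. Above TPM 10, Etv6 remained in 27 cells and Elf1 in 29, while Elf2 remained in 42.

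Gabpa is the DNA-binding subunit of the GA-binding protein, which works with Gabpb1 and is known for nuclear genes of the mitochondrial machinery. It was above TPM 1 in 25 cells (50%, 35.5% to 64.5%), was listed at 0 in 16 and lay above 0 and up to TPM 1 in 9. Its median TPM was 1.3, its upper quartile 17.5 and its highest value 58.3 in cell 4-2. Among the 25 cells the median was 17.7 TPM. Its partner Gabpb1 was above TPM 1 in 45 cells at a median of 87.4 TPM. Both subunits were counted in 24 cells, Gabpb1 alone in 21 and Gabpa alone in 1. Gabpa overlaps Atp5j on the opposite strand.

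Etv2 was above TPM 1 in 9 cells (18.0%, 8.58% to 31.4%) and was listed at 0 in 40. The 9 cells, from the highest TPM down, were cell 2-18 with 158, 2-16 with 84.9, 1-3 with 60.5, 3-2 with 26.8, 3-12 with 25, 1-1 with 19.6, 3-8 with 13.9, 3-4 with 10.6 and 4-3 with 1.06. Cell 4-6, at 0.91, lay just under the level. The 9 cells came from all 4 first title numbers, with a share of 8.33% to 30.8% of the cells of each. In 8 of the 9 the level was above TPM 10, so most of these values were not at the edge of the counting level. The Etv2 level never exceeded that of Ets2 in any cell, exceeded Elk3 in 1 cell and exceeded Ets1 in 3. Those 3 include cell 4-6, where both Etv2 (0.91) and Ets1 (0.38) lay under TPM 1.

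Most cells held most of these factors. Whether any were found together more often than their single counts give was not tested. The median cell had 6 of the 8 members above TPM 1. No cell had fewer than 3, 3 cells had 3, 9 had 5, 15 had 6, 21 had 7 and 2 had all 8. Seen as shares, 94.0% of cells (83.5% to 98.7%) had at least 5 members and 46% (31.8% to 60.7%) at least 7.

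**Figure D2:**
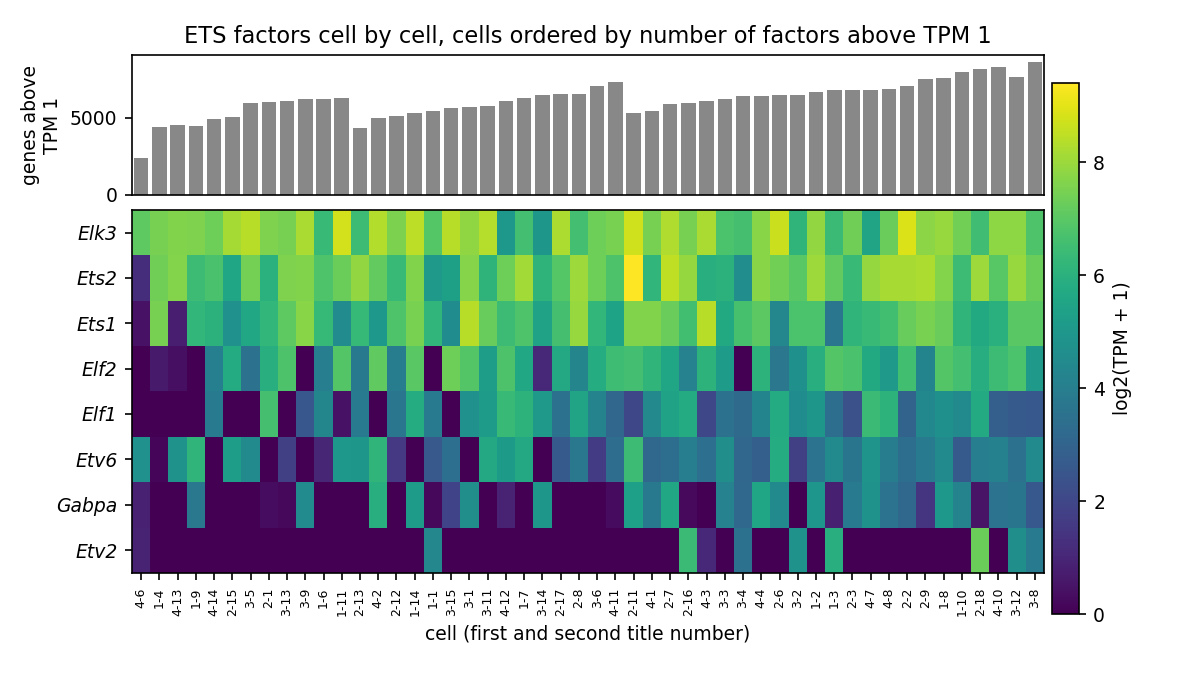
log2(TPM + 1) of the 8 ETS factors (rows) in each of 50 cells (columns), ordered from the fewest to the most factors above TPM 1, with the number of genes above TPM 1 of each cell as bars on top. The 3 leftmost cells hold 3 factors, the 2 rightmost hold all 8, and the top 3 rows are filled in 48 cells.

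Ets1, Ets2 and Elk3 were together in 48 of 50 cells (96.0%, 86.3% to 99.5%), and Fli1, at a median of 101 TPM and counted in all 50 cells, was present in each of those 48. Adding Erg, which was counted in 38 cells at a median of 23.9 TPM, left 38. The 48 equals the count of Ets1 alone, because Ets2, Elk3 and Fli1 were counted in all 50 cells. The 38 equals the count of Erg alone. The 6 members other than Etv2 and Gabpa were together in 31 cells (62.0%, 47.2% to 75.3%). With Gabpa added the count was 17 (34%, 21.2% to 48.8%), and with Etv2 as well it was 2 (4.00%, 0.488% to 13.7%). The 2 cells with all 8 were 3-8 and 3-12, which had 8615 and 7655 genes above TPM 1. In cell 3-12 the members ran from 5.34 TPM for Elf1 to 245 for Ets2, and in cell 3-8 from 4.98 for Gabpa to 154 for Ets2.

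The 3 cells with the fewest members were 1-4, 4-13 and 4-6, and all lay under 5000 genes. Cell 4-6 was unlike the rest: it had the fewest genes, kept Elk3 at 132 TPM and Etv6 at 26.2 TPM, and had Ets2 at only 1.34. Its most abundant ETS gene was Sfpi1 (the older symbol of Spi1, which encodes PU.1), at 3843 TPM. Over the 50 cells the number of members rose with the number of genes above TPM 1, with a Spearman rho of 0.64 (n = 50). Both numbers come from the same library, and the part of genes per cell in joint presence was not tested.

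**Figure D3:**
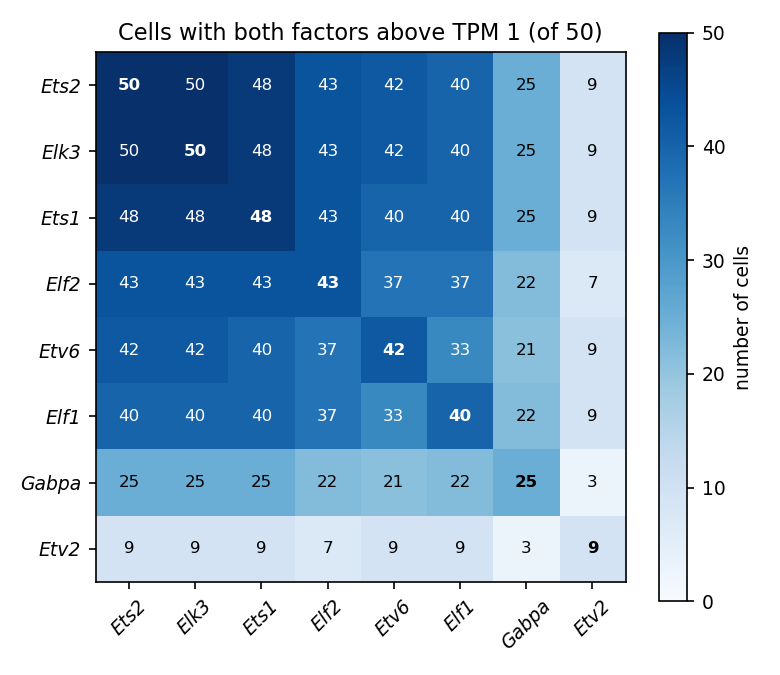
Number of cells, of 50, in which both factors of a pair were above TPM 1, with the count for each single factor on the diagonal. Ets1, Ets2 and Elk3 share at least 48 cells with each other, and Gabpa and Etv2 share 3.

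Etv2 was found with nearly all other members. All 9 Etv2 cells also had Ets1, Ets2, Elk3, Etv6, Elf1 and Fli1 above TPM 1, and 7 had Elf2. Erg and Runx1 were each present in 8 of them. Gabpa was present in 3 of the 9, while 22 of the other cells had Gabpa without Etv2. With 9 cells these counts give wide limits, and all of these genes but Gabpa were frequent in the whole series. Ets2, Elk3 and Fli1 were counted in all 50 cells, Ets1 in 48, Elf2 and Runx1 in 43, Etv6 in 42, Elf1 in 40, Erg in 38 and Gabpa in 25, so the counts beside Etv2 are not read as particular to the Etv2 cells.

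Levels of the members varied together only weakly. Of the 28 pairs, 19 had a Spearman rho above 0 and 9 below, with a median of 0.09. All rho values are over the same 50 cells and are descriptions, since the labels tie no cell to a culture and the cells differ in genes per cell. Genes per cell themselves had a rho of 0.30 with Elf1, 0.28 with Elf2, 0.27 with Ets2 and -0.16 with Elk3.

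The highest value was between Ets1 and Ets2, at a rho of 0.41. Their Pearson r on the log2(TPM + 1) scale was 0.48. With the 2 cells farthest from the median of Ets1 left out, rho was 0.46, and with each first title number left out it ran from 0.34 to 0.55. Within the 4 first title numbers it ran from 0.09 to 0.71. Given genes per cell, the partial rho was 0.41. For comparison, the 95th percentile of rho over the 9103 other rows found in at least 20% of cells was 0.30 for Ets1 and 0.33 for Ets2. Ets1 with Ets2 was picked as the highest of 28 pairs, so passing a percentile of single values is not a test. Elf2 and Gabpa had a rho of 0.32 and Ets2 and Elf1 also 0.32, but both ranges within first title numbers crossed 0, from -0.14 to 0.49 and from -0.17 to 0.57.

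The lowest values were those of Etv2 with Elk3 at -0.33, Elk3 with Elf1 at -0.32 and Ets1 with Etv6 at -0.32. Within the first title numbers Ets1 and Etv6 stayed below 0, from -0.45 to -0.18, while Etv2 with Elk3 ran from -0.46 to 0.11 and Elk3 with Elf1 from -0.63 to 0.02. Etv2 rests on the 10 cells in which it was above 0. Of the members with Fli1, Elf2 had the highest rho at 0.38 (0.31 to 0.81 within first title numbers), followed by Ets1 at 0.32 (-0.17 to 0.55). Gabpa and its partner Gabpb1 had a rho of 0.27, which stayed above 0 within each first title number, from 0.16 to 0.44.

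Targets known for ETS control were widely present. Of 18 endothelial genes that ETS factors are known to regulate, 15 passed TPM 1 in 40 cells or more, where 28.8% of all rows did. Each cell had between 11 and 18 of them, with a median of 17. The list was chosen with earlier results of these data known. The cells were also sorted on CD31, the product of the listed gene Pecam1, so this share is a description and not a test. Among the 8 members, Elk3 and Ets1 had the highest median rho with these genes. Fli1 and Erg were not set against the list. The 18 genes may vary together, so their signs are not 18 separate results. The rho of Elk3 with the 18 genes had a median of 0.23 and was above 0 for 17, where its median over 9103 rows was -0.01 and 47.6% of rows were above 0. Its highest values were with Cdh5 (VE-cadherin, the endothelial junction protein) at 0.43, Egfl7 (a secreted endothelial protein) at 0.40, Robo4 (an endothelial guidance receptor) at 0.39 and Flt1 (a VEGF receptor) at 0.38, and the exception was Mef2c at -0.01. Ets1 had a median of 0.17, with 17 of 18 above 0, against 0.04 and 60.3% over all rows, and its highest values were with Pecam1 (CD31) at 0.40 and Tie1 at 0.33.

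With each first title number left out, the median for Elk3 stayed between 0.21 and 0.27 and that for Ets1 between 0.13 and 0.19. Without the 7 cells under 5000 genes they were 0.22 and 0.16. For Elf2 the median was 0.14 over all cells and -0.01 without those 7 cells. Elf2 had its highest value with Kdr (the main VEGF receptor) at 0.38 and reached 0.32 with Tek, while Elf1 had -0.06 with Tek. Etv6 had the lowest median, -0.07, with 4 of 18 above 0 where 44% of all rows were, and its lowest value was -0.30 with Tie1. Medians for Ets2, Etv2, Gabpa and Elf1 were 0.09, 0.00, -0.03 and -0.03. Without the 7 cells under 5000 genes, that of Ets2 was 0.01. Over all compared rows the medians were 0.08 for Ets2 and 0.07 for Elf2. CD31, the product of Pecam1, was used in the sort, and the part of the gate in the Pecam1 values was not tested.

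**Figure D4:**
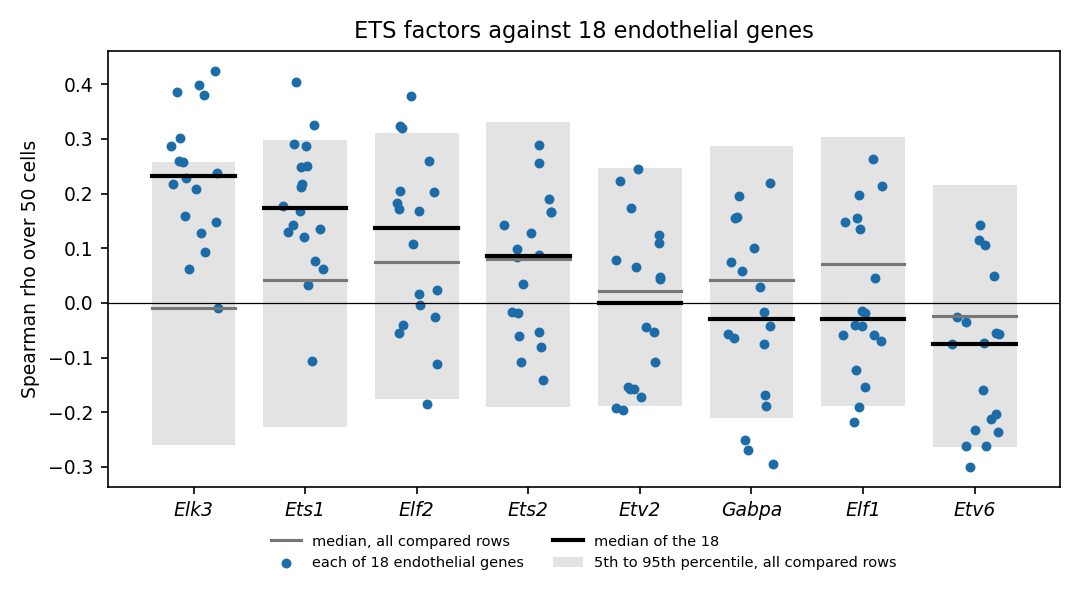
Spearman rho over 50 cells of each ETS factor with each of 18 endothelial genes (points), with their median (black bar), and the 5th to 95th percentile (grey box) and median (grey bar) over all compared rows. Elk3 and Ets1 have 17 of 18 points above 0, and Etv6 has 4.

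Of the 8 genes known as targets of GA-binding protein, 5 passed TPM 1 in 40 cells or more (28.8% of all rows), and Cox4i1 and Atp5b, parts of the respiratory chain, had medians of 1559 and 1895 TPM. The mitochondrial transcription factors were lower, with Tfam in 39 cells, Tfb2m in 23 and Tfb1m in 20. The rho of Gabpa with the 8 genes had a median of 0.06, with 6 above 0, against 0.04 and 61.0% over all rows. Cox4i1 and Atp5b had no cell under 637 and 791 TPM, so both were also found in the 16 cells in which Gabpa was listed at 0. The longer letters CCGGAAGT, which GA-binding protein and its relatives are known to prefer, were searched on both strands. They were present in 3.89% of the 32851 windows. None of the 9 windows of 7 members held them, nor did windows of 12 of the endothelial genes. They were present in 1 of 7 windows of the GA-binding protein targets (Tfam) and in 1 of 22 windows of 14 other ETS genes (Elk4). The Elk4 match, 68 bases before the start on the plus strand of chr1:132007536-132007575, is shown with the letters in capitals. It is the single one among the ETS genes with a window.
Elk4: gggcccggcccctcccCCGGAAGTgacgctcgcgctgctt

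Set against the ETS family, these factors made up most of what was measured. Of 18 other ETS genes searched, 13 had a row, and 1 of them, Fli1, passed TPM 1 in 40 cells or more, where 28.8% of all rows did. Erg and Etv3 were counted in 38 and 32 cells, and Fev, Etv4 and Etv1 in 1, 8 and 16. Spic was listed at 0 in all 50 cells, which allows a share of cells above TPM 1 of up to 6% by the limit of 3 counts, or 7.11% by the exact interval. Both limit the listed values and not the expression of the gene. The 8 members carried a median of 69.7% of the summed TPM of the 21 ETS rows, and Ets1, Ets2 and Elk3 together 54.7% (range 3.3% to 82.5%). Singly, the median shares were 21.6% for Elk3, 17.9% for Ets2, 12.1% for Fli1, 11.6% for Ets1 and 5.45% for Elf2. The most abundant ETS gene of a cell was Elk3 in 18 cells, Ets2 in 14, Sfpi1 in 10, Fli1 in 6 and Ets1 in 2. Sfpi1 was counted in 24 cells and ran from 0 to 3843 TPM. The lowest share of the 8 members together, 3.98%, was in cell 4-6, where Sfpi1 was highest.

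**Figure D5:**
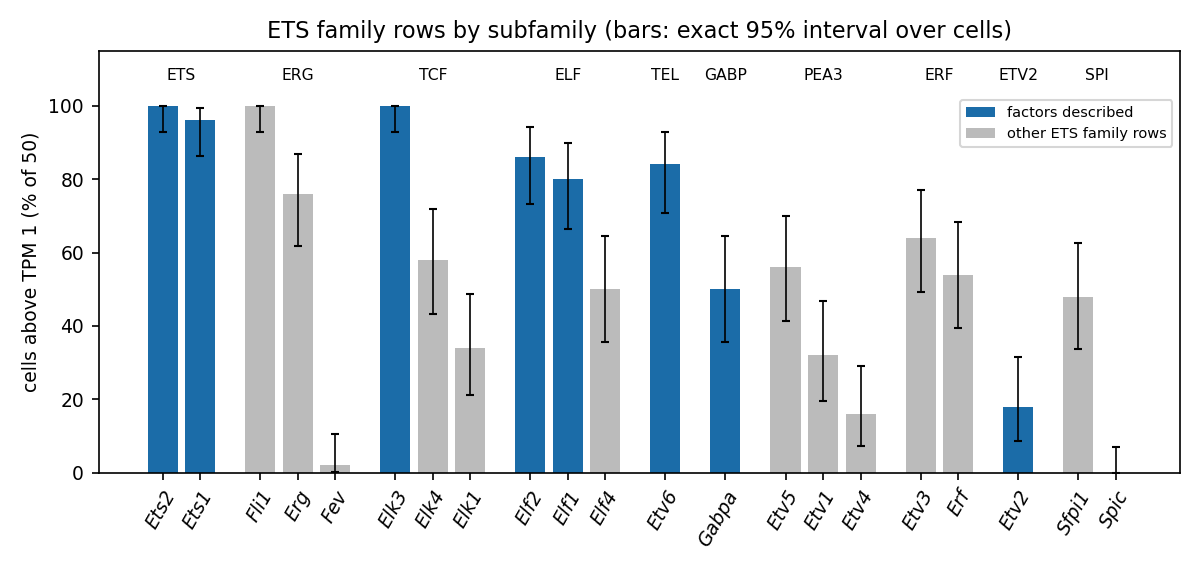
Percent of 50 cells above TPM 1 for the 21 ETS family rows, grouped by subfamily, with exact 95% intervals for counting error over cells. Blue bars are the 8 factors described and grey bars the others. Ets2, Elk3 and Fli1 reach 100%, and within the ternary complex and ELF subfamilies the factors described exceed their relatives Elk4, Elk1 and Elf4.

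The genes through which these factors act or are modified were also measured. Of 12 partners and cofactors, 6 passed TPM 1 in 40 cells or more, against 28.8% of all rows: Gabpb1 (45), Runx1 (43), Cbfb (40), Ncor1 (49), Hdac3 (42) and Ctbp1 (48). Runx1, which binds DNA jointly with Ets1, was found with Ets1 in 43 cells, and the rho of their levels was -0.10, with no steady sign: it ran from -0.28 to 0.10 with each first title number left out and from -0.64 to 0.34 within them. The corepressors of Etv6 differed, with Ncor1 at a median of 73.5 TPM and Sin3a in 26 cells at a median of 1.79. The coactivators Crebbp and Ep300, which bind Ets1 and Ets2, were counted in 32 and 33 cells. Of the Ras/MAP kinase route, 9 of 10 genes searched had a row and 8 of the 9 passed TPM 1 in 40 cells or more, beside the same 28.8%. Braf, in 27 cells, was the exception, and Mapk3, a kinase that phosphorylates ETS factors, was in 49 cells at a median of 136 TPM. Transcript levels say nothing of phosphorylation.

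The rows whose levels were most like each member over the 50 cells were named by rank of rho among rows in at least 20% of cells. Ets1 was most like Sh3tc1, at 0.64 (0.57 to 0.73 within first title numbers), which was the highest rho of any member, followed by Ctnnb1 (beta-catenin) at 0.56 and Tab1 at 0.53. For Ets2 they were Map3k3 (a MAP kinase kinase kinase) at 0.56, Eif2c2 (the older symbol of Ago2) at 0.55 and Jund (an AP-1 subunit) at 0.54. For Elk3 they were Cttnbp2nl at 0.51, Fam78b at 0.50 and E130012A19Rik at 0.49. Etv6 was most like Jmjd1c and Tanc2 at 0.52 each and Zcchc7 at 0.47. Elf1 was most like Wac at 0.58, with Rbm38 and Daglb at 0.53 each, and Elf2 most like Rai1, Fip1l1 and Sart3, all at 0.53. Gabpa was most like Aen and Rbl1 (p107) at 0.55 each and Hist1h4d at 0.54. Each list is the top of 9103 values and was picked by rank, so these rho are high by construction. Etv2, in 18.0% of cells, was below the share required.

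In the GRCm38 annotation the 8 genes lie on 7 chromosomes, with Ets2 (chr16:95702075-95721051, plus strand) and Gabpa (chr16:84834925-84863779, plus strand) on the same one. Ets1 is at chr9:32636221-32757820 on the plus strand, Etv6 at chr6:134035700-134270158 on the plus strand and Elf1 at chr14:79481194-79582494 on the plus strand. Elf2 is at chr3:51252720-51340663, Elk3 at chr10:93247414-93311135 and Etv2 at chr7:30633616-30635852, all on the minus strand. Etv2 and Ets2 overlap no other annotated gene. Ets1, Etv6 and Elf2 overlap only genes that do not code for protein.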

How the data were processed

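Polyadenylated RNA of 50 sorted single iR-iHECs was amplified with the Discover-sc WTA Kit V2, and libraries were made with the TruePrep kit; no unique molecular identifiers were named. Per the submitters' processing notes, the tools were bcl2fastq, HISAT2 2.1.0, SAMtools 0.1.19 and StringTie 1.3.4, on mm10. The authors deposited TPM per gene and cell; how the 11879 rows were selected was not given in the sources used here. Columns summed to 942975 to 970894. TPM keeps no depth, so nothing was thinned, and no cell was left out, clustered or called a doublet. The series text and the study's methods name different sequencers.

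Values were computed in Python 3.11.15 with pandas 2.3.3, numpy 2.4.6 and scipy 1.17.1. Shares of cells above TPM 1, a level the study used only to select genes for its map of cells, carry exact Clopper-Pearson 95% intervals, which cover counting error over cells only, as does the limit of 3 counts for a count of 0. Log values used a pseudocount of 1. Named genes were the members, the genes of the lists of ETS genes, partners, MAP kinase route, targets and markers, and the 3 rows with the highest Spearman rho for each member in at least 20% of cells. The values of 1 listed gene are not reported here. The members and lists were chosen with earlier results of these data known. Coordinates came from GENCODE M21 on GRCm38 and promoter windows from RefSeq. Correlation code was tested on simulated data. The levels 0, 5 and 10 were tried in place of TPM 1, as were a pseudocount of 0.1, leaving out each first title number, cells with at least 5000 genes, partial rho given genes per cell and TPM rescaled without 83 ribosomal protein rows.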

Additional observations from a re-analysis of the deposited data

How the results depend on the processing

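Counting every TPM above 0 raised the median number of members per cell to 7, the share of cells with Gabpa to 68% and the shares with Ets1 and with Ets1 and Ets2 together to 100%. At TPM above 10, the share of cells with all 8 members was 0%, with Etv6 54% and with Elf1 58%. Leaving out the cells under 5000 genes gave a median of 7 members, and 100% both for Ets1 and for Ets1 with Ets2. Without first title number 4, which holds the 2 cells that lack Ets1, both shares were also 100%, and without number 3, which holds both cells with all 8 members, that share was 0%. At TPM above 5, without first title number 1 or 2 and after rescaling without ribosomal protein rows, the shares of all 8 members stayed within their exact intervals. Of the 28 rho values between members, 2 moved by more than the SD of the values within first title numbers without number 1, and 1 each without numbers 2, 3 and 4 and without the cells under 5000 genes. These were Etv6 with Elf1, from -0.14 to between -0.18 and -0.02, and Ets1 with Elf2, from 0.08 to 0.16 without number 1 and 0.01 without number 4. That SD rests on groups of 11 to 14 cells, and was 0.013 for Etv6 with Elf1 but 0.37 for Elf1 with Elf2. Elf1 with Elf2 went from 0.03 to -0.17 without the cells under 5000 genes and was not counted as moved. A rho not counted as moved is therefore not shown to be stable. No paired analysis was possible because no second group was sampled. Depth is unknown from TPM, so a value of 0 does not show that a gene was not expressed. The labels name no culture, so the spread between preparations is not known.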
